A study of Mus musculus with 19 samples.

Results

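RNA polymerase II and the general transcription factors that place it on promoters were followed in mouse MII oocytes and 2cell embryos. The rule that picks the genes uses their name and biotype and no measured value, though it was set with earlier results of these data known. They are the protein-coding genes Polr2a to Polr2m, those of TFIIA, TFIIB, TFIIE, TFIIF and TFIIH whose symbols begin with Gtf2, the numbered Taf genes without Taf4b, Tbp and Tbpl1. This gave 50 of the 25891 genes listed: 13 polymerase subunits, 2 genes of the TBP family, 3 of TFIIA, 1 of TFIIB, 2 of TFIIE, 2 of TFIIF, 5 of TFIIH, 15 TFIID TAFs and 7 other TAFs. Polr2m is counted with the subunits by its symbol, although its protein is an associated factor and not part of the core enzyme.

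RNA polymerase II makes all mRNA. TFIID, built of TBP and its TAFs, marks the promoter, TFIIA and TFIIB stabilise it there, TFIIF brings the polymerase, and TFIIE and TFIIH open the DNA. The MII oocyte does not transcribe, so its mRNA was stored during growth, and the 2cell embryo is the stage at which the mouse genome is broadly switched on. CPEB3 is an RNA-binding protein of the CPEB family, whose members bind U-rich cytoplasmic polyadenylation elements (CPEs) in 3′UTRs of stored mRNAs.

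The study compared oocytes and embryos of females labelled Het (CPEB3+/-) with those of females labelled KO (CPEB3-/-). There were 5 Het and 5 KO libraries of MII oocytes, and 5 Het and 4 KO libraries of 2cell embryos. All females were of the BL6 background, 6 to 10 weeks old, and received 5 IU of PMSG and then, 48 h later, 5 IU of hCG. MII oocytes were ovulated in vivo. The 2cell embryos grew in culture from zygotes of mated females and were collected 37 h after hCG. By the study's methods, loxP-flanked Cpeb3 was deleted by a Cre driven by the oocyte-specific Zp3 promoter, so the genotype is that of the mother's oocytes, and each library pools several cells. The labels do not say which libraries shared a female, so p-values measure the spread between libraries only.

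Values are FPKM (fragments scaled to exon length and to the fragments of the library), a share of each library's captured RNA per length of transcript. The SMART-seq v4 kit captures RNA by its poly(A) tail, so a change in RNA amount and one in tail capture cannot be told apart. In such bulk values, fewer cells of a type and less RNA per cell cannot be told apart. For the tests, libraries were put on a common scale by the trimmed mean of their log ratios, which assumes that most genes do not differ. A gene was called when limma gave an adjusted p (Benjamini-Hochberg over all genes tested) under 0.05 and a difference above 1.5-fold. Fold changes are log2 differences of FPKM + 0.1, which understates the change of low genes. Depth, estimated from the smallest steps between low values, was 17.2 to 23.6 M fragments per library (median 19.65 M, with M for mega).

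The RNA of the deleted gene was not lower in the KO libraries. Cpeb3 was at 0.0755 ± 0.0240 FPKM (SD, n = 5) in Het and 0.162 ± 0.0325 FPKM (n = 5) in KO oocytes, with no overlap (p = 0.00794 by a two-sided exact permutation test over 252 splits, which can give no smaller p). In 2cell embryos it was at 0.0303 ± 0.0149 and 0.0554 ± 0.0129 FPKM (p = 0.0476 by the same exact test over 126 splits). Exons are not listed apart, so the deleted ones could not be checked. Het and KO therefore stand throughout for the libraries labelled so. Of the oocyte markers, all 12 were listed, and their summed level was 993 to 1320 FPKM in MII and 171 to 246 FPKM in 2cell libraries. Cumulus and granulosa markers (12 of 16 listed) summed to 0.371 to 1.38 FPKM over all libraries, and sperm markers (4 of 10 listed, mainly Odf2) to 1.59 to 3.34 FPKM. Blood markers (4 of 8 listed, mainly Hba-a1) summed to 0.0512 to 0.434 FPKM in MII but 46.4 to 148 FPKM in 2cell libraries. The part of the globin RNA in the stage differences was not tested.

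The machinery was far from evenly represented in mRNA. The 50 genes summed to 520.5 ± 18.1 FPKM in Het oocytes and 577.1 ± 30.9 FPKM in KO oocytes, and to 494.8 ± 46.2 and 458.3 ± 23.5 FPKM in the 2cell embryos. As a share of all FPKM listed, this was 0.607% and 0.71% in Het and KO oocytes and 0.333% and 0.379% in the embryos. A single gene, Taf7, a TFIID subunit that binds Taf1, held 39.8% ± 1.61 (SD, n = 5) of that sum in Het oocytes and 15.0% ± 1.76 in Het 2cell embryos. Polr2j, which pairs with Polr2c at the start of polymerase assembly, went the other way, with 9.45% ± 0.986 of the sum in Het oocytes and 23.6% ± 2.44 in Het embryos. In Het oocytes 31 of the 50 genes reached a mean of 1 FPKM and 9 reached 10 FPKM. The counts were 33 and 12 in Het embryos.

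**Figure D1:**
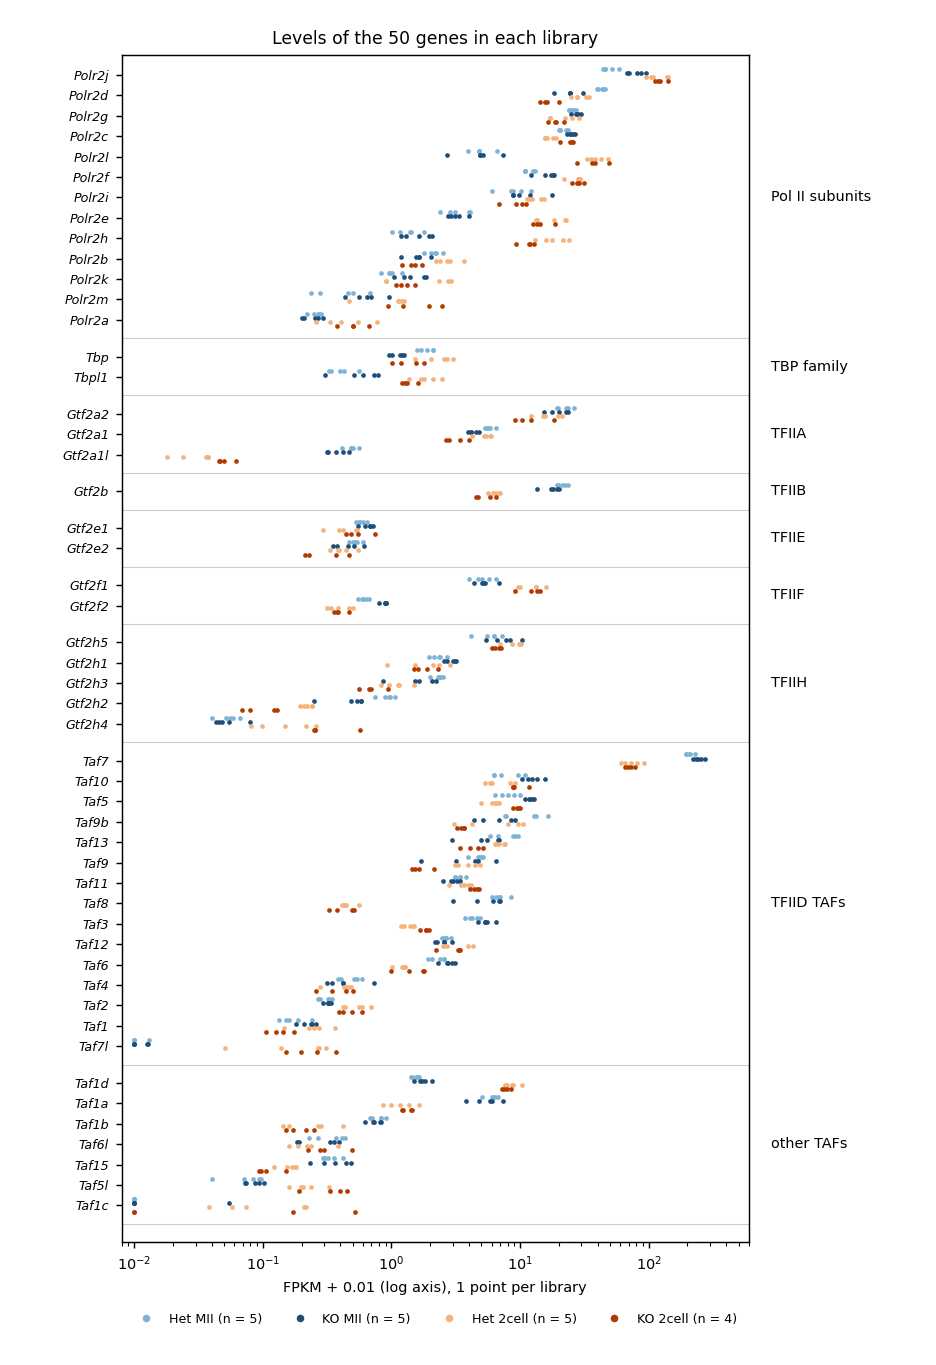
Level of each of the 50 genes in every library as FPKM + 0.01 on a log axis, 1 point per library, with genes grouped by role and colours for the 4 groups of libraries. Taf7 and Polr2j lie at the right, with Polr2j at 49.3 FPKM and Polr2a at 0.249 FPKM on average in Het oocytes.

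Subunits of the same polymerase differed widely in level per length of transcript. Polr2a, the largest subunit, which carries the catalytic centre and the C-terminal domain, had the lowest level of the 13 in each group: 0.249 ± 0.0240 FPKM in Het oocytes, 0.236 ± 0.0391 in KO oocytes, 0.454 ± 0.202 in Het embryos and 0.504 ± 0.122 in KO embryos (SD, n = 5, 5, 5 and 4). Polr2j had the highest, and exceeded Polr2a by a ratio of 198, 340, 258 and 244 in the same order. The median subunit was at 4.99 FPKM in oocytes of both genotypes, 18 FPKM in Het and 14.8 FPKM in KO embryos. Polr2j, Polr2d and Polr2g, the last pair forming the stalk of the enzyme, were among the 6 highest of the 50 genes in Het oocytes. The other places were taken by Taf7, Polr2c and Gtf2a2, the small subunit of TFIIA.

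In MII oocytes, Polr2d, Tbp and Gtf2h2 were lower in KO and Polr2j was higher. These were the 4 of 46 tested members that were called (8.7%). Among all 10515 genes tested 12.8% were called, 5.51% higher and 7.33% lower. The median log2 difference of the members was -0.08, beside 0.01 over all genes tested. Both groups were free of overlap for 7 of the 46 members, where 16.3% of all genes tested had none. At an unadjusted p under 0.05 there were 18 members, 11 of them lower in KO. Of all genes tested 3897 (37.1%) passed that p, 2003 of them lower in KO. The 4 members not tested were under 0.1 FPKM in every oocyte library. The count rose to 7 without Het library B and to 7 without KO library D. With 1 FPKM added in place of 0.1, Tbp and Gtf2h2 were not called, while Polr2d was called under each of the 9 alternatives run.

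Polr2d, a stalk subunit, was at 44.5, 43.1, 45.9, 40.4 and 39.5 FPKM in the 5 Het libraries and at 18.5, 24.3, 24.5, 24.5 and 30.8 FPKM in the 5 KO libraries. Every KO oocyte library lay below every Het one, and the log2 fold change was -0.92 (SE 0.15, limma adjusted p = 0.00317). Its stalk partner Polr2g, on the other hand, differed by 0.02 on the log2 scale (SE 0.07, limma adjusted p = 0.886).

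Tbp, the TATA-binding protein, was at 2.08, 1.69, 2.09, 1.89 and 1.58 FPKM in Het and at 1.01, 0.956, 1.24, 1.15 and 1.20 FPKM in KO oocytes. The groups did not overlap (log2 fold change -0.80, SE 0.14, limma adjusted p = 0.00472). The Tbp gene (GRCm38 chromosome 17, 15499888 to 15528379, plus strand) shares 19% of its exon bases with Pdcd2 on the opposite strand, and whether the counting used strand is not stated. Pdcd2 itself was at 0.299 ± 0.0908 FPKM in Het and 0.320 ± 0.144 in KO oocytes (n = 5 each). The TBP-like factor Tbpl1 had a log2 difference of 0.32 (SE 0.24, limma adjusted p = 0.369).

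Gtf2h2 encodes the TFIIH core subunit that contacts the XPD helicase. It was at 0.966, 0.730, 1.05, 0.954 and 0.884 FPKM in Het and at 0.241, 0.529, 0.476, 0.574 and 0.566 FPKM in KO oocytes, again without overlap. The log2 fold change was -0.94 (SE 0.22, limma adjusted p = 0.0141). The other 3 TFIIH members tested in oocytes were not called.

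Polr2j was the member that rose, from 45.7, 59.0, 44.3, 45.4 and 51.8 FPKM in Het to 80.5, 95.7, 87.1, 68.0 and 69.8 FPKM in KO oocytes. All KO values exceeded all Het values (log2 fold change 0.60, SE 0.10, limma adjusted p = 0.00396). That lies just above the 1.5-fold threshold, and the call was lost without Het library D, KO library B or KO library C (log2 0.53 at the lowest). It was also lost when each library's trend with GC content was removed and with no filter on low values. Polr2j (chromosome 5, 136116631 to 136122947, plus strand) shares 15.9% of its exon bases with Lrwd1 on the opposite strand, which was at 0.130 ± 0.0796 FPKM in Het and 0.129 ± 0.0666 in KO oocytes.

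Among the remaining factors in oocytes, 3 members passed the adjusted p and had no overlap but stayed under 1.5-fold. Gtf2a1, the large subunit of TFIIA, had a log2 difference of -0.51 (SE 0.10, limma adjusted p = 0.00856), and Taf5, a scaffold of TFIID, one of 0.46 (SE 0.10, limma adjusted p = 0.0105). Gtf2f2 of TFIIF was the third such member (log2 0.38, SE 0.08, limma adjusted p = 0.0127), and is named after its values were seen. None of the 14 TFIID TAFs tested in oocytes was called, although Taf10 (log2 0.57, SE 0.14, limma adjusted p = 0.0209), named after its values were seen, was called higher with the values as deposited, and Taf10 and Taf5 with library totals set equal. Taf10 shares 45.9% of its exon bases with Ilk on the opposite strand.

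**Figure D2:**
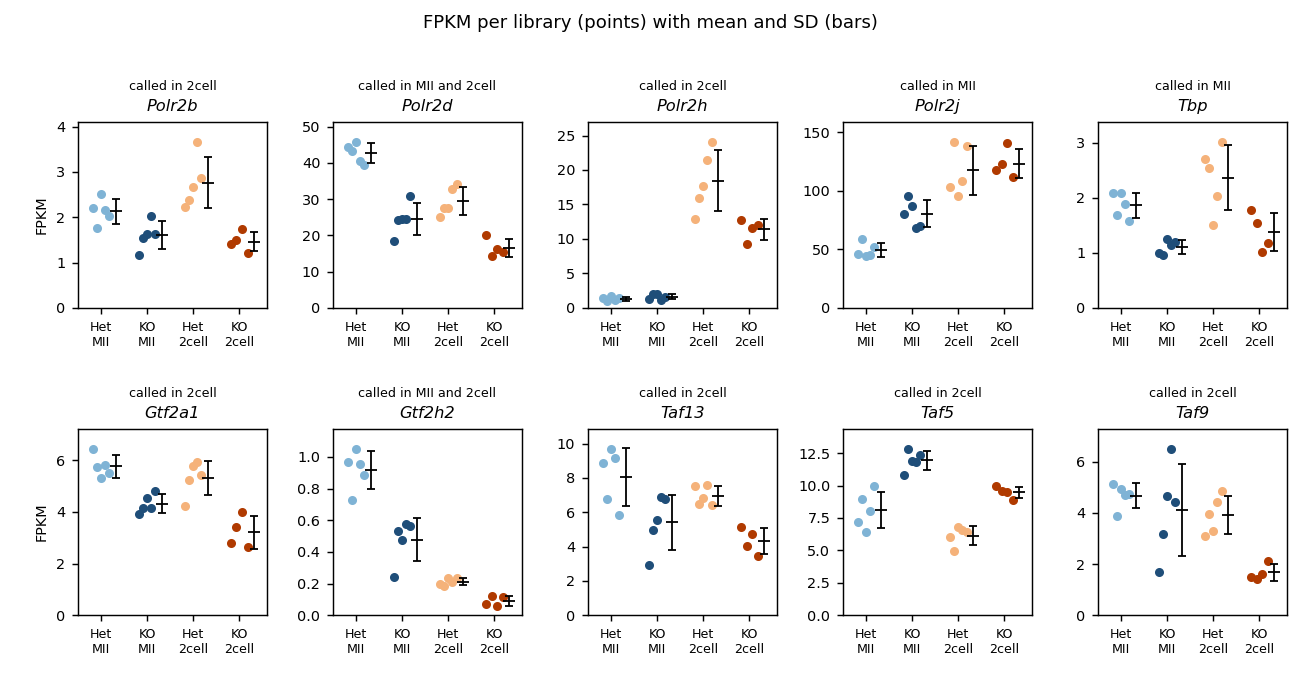
FPKM of the 10 members called between genotypes in either stage, 1 point per library, with the mean and SD of each group as a black bar and all axes from 0. In oocytes the KO points of Polr2d, Tbp and Gtf2h2 lie below all Het points, and in 2cell embryos 7 of the 10 genes were called lower in KO on the trimmed-mean scale.

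In 2cell embryos 8 members were called on the trimmed-mean scale used throughout, 7 of them lower in KO. With library totals set equal 6 members were called higher and 1 lower, and of these only Taf5 and Taf9 were among the 8. On the trimmed-mean scale Taf9, Polr2b, Polr2d, Gtf2a1, Gtf2h2, Taf13 and Polr2h were lower in KO and Taf5 was higher, out of 49 tested members (16.3% called). Of all 14051 genes tested 18.1% were called, 8.67% higher and 9.42% lower, so the share called among the members was near that of all genes. The median log2 difference of the members was -0.13 beside 0.00 over all genes tested, and 33 of the 49 lay below 0. No overlap was seen for 11 members, beside 20.0% of all genes tested. Removing each library's trend with GC content ended the calls of Gtf2a1, Gtf2h2 and Taf13, and adding 1 FPKM ended those of Gtf2h2 and Taf5. The call of Taf5 was also lost with no filter on low values and with all 19 libraries in 1 fit. In that 1 fit 1 member was called higher and 9 lower, with Tbp and Taf1 among the lower. Taf9 was called under each of the 9 alternatives run. Of the cumulus and granulosa list, 4 genes were tested in embryos. Nr5a2 (log2 -0.67) and Tnfaip6 (log2 -0.996) were called lower in KO and 0 higher. Nr5a2 was not among the markers first planned, and whether the embryos themselves made these RNAs was not tested. That list summed to 1.04 to 1.38 FPKM in Het and 0.823 to 1.38 FPKM in KO embryos, and its part in the member calls was not tested.

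Polymerase subunits made up 3 of these calls. Polr2d was at 25.1, 27.7, 27.5, 32.8 and 34.2 FPKM in Het and at 20.1, 14.3, 16.1 and 15.5 FPKM in KO embryos (log2 fold change -0.87, SE 0.13, limma adjusted p = 0.00298). Polr2b, the second largest subunit, which forms the catalytic cleft with Polr2a, was at 2.22, 2.39, 2.67, 3.67 and 2.86 FPKM in Het and at 1.41, 1.5, 1.73 and 1.20 FPKM in KO (log2 fold change -0.90, SE 0.17, limma adjusted p = 0.00716). In neither gene did the groups overlap.

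Polr2h, a subunit that polymerases I, II and III share, was at 13, 15.9, 17.7, 21.4 and 24.1 FPKM in Het and at 12.7, 9.26, 11.6 and 12 FPKM in KO embryos. The groups came close, with the lowest Het library just above the highest KO one (log2 fold change -0.70, SE 0.17, limma adjusted p = 0.0201). Without KO library B the adjusted p was 0.0587.

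Among the general factors, Gtf2a1 was at 4.25, 5.22, 5.80, 5.93 and 5.42 FPKM in Het and at 2.79, 3.41, 4.01 and 2.63 FPKM in KO embryos (log2 fold change -0.76, SE 0.16, limma adjusted p = 0.00995). Gtf2h2 was at 0.20, 0.184, 0.233, 0.210 and 0.233 FPKM in Het and at 0.0692, 0.118, 0.0587 and 0.113 FPKM in KO (log2 fold change -0.75, SE 0.17, limma adjusted p = 0.0147). Both were again free of overlap, but Gtf2h2 rested on an estimated 18.7 fragments per Het and 7.78 per KO library. It reached the 0.1 FPKM asked of 4 embryo libraries in 5 of 5 Het and 2 of 4 KO libraries, so the group where it was higher was enough to have it tested.

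Of the TFIID TAFs, Taf13, which forms a histone-fold pair with Taf11, was at 7.55, 6.47, 6.81, 7.60 and 6.40 FPKM in Het and at 5.13, 4.05, 4.74 and 3.42 FPKM in KO embryos (log2 fold change -0.72, SE 0.14, limma adjusted p = 0.00840). Taf5 was higher, at 6.00, 4.92, 6.82, 6.58 and 6.40 FPKM in Het against 9.96, 9.61, 9.47 and 8.87 FPKM in KO (log2 fold change 0.59, SE 0.12, limma adjusted p = 0.00869). Every KO library of Taf5 lay above every Het library, but the fold fell under 1.5 without Het library B or KO library B (log2 0.51 at the lowest).

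Taf9 had the largest log2 difference among the members called between genotypes, but its value cannot be assigned to it alone. It was at 3.11, 3.96, 3.30, 4.43 and 4.86 FPKM in Het and at 1.5, 1.43, 1.63 and 2.13 FPKM in KO embryos (log2 fold change -1.22, SE 0.18, limma adjusted p = 0.00274). Taf9 (chromosome 13, 100651579 to 100656060, plus strand) shares 73.8% of its exon bases with Ak6 on the same strand. Ak6, an adenylate kinase, was at 25.2 ± 4.46 FPKM in Het (n = 5) and 9.74 ± 1.36 in KO embryos (n = 4), and was called too (log2 fold change -1.39, SE 0.16, limma adjusted p = 0.00133). In oocytes Ak6 was also called lower in KO (log2 -0.70, SE 0.14, limma adjusted p = 0.00956), while Taf9 was not (log2 -0.41, SE 0.32, limma adjusted p = 0.367).

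The downward calls in embryos depended on the scale. Het 2cell libraries summed to 135309 to 159320 FPKM over all genes listed and KO ones to 113886 to 123318 FPKM. With library totals set equal, the median of all genes tested shifted to 0.26, and 6 members were called higher and 1 lower, beside 17.2% and 4.08% of all genes. Besides Taf5, those called higher were Gtf2h4, Polr2c, Taf10, Taf11 and Taf3. Of the 8 members called on the trimmed-mean scale 0 reversed in sign, and Taf5 and Taf9 were called under both scales. Polr2b, Polr2d, Polr2h, Gtf2a1, Gtf2h2 and Taf13 were not called with library totals set equal. Relative to the median gene these 6 lay between -0.85 and -0.63 on the log2 scale in that scaling. In oocytes the same scaling gave 3 members higher and the same 3 lower, beside 10.6% and 4.55% of all genes, and the values as deposited gave 2 and 3. Relative to the median of all genes tested, 33 of 49 members lay below it in embryos with trimmed-mean scaling and 32 of 49 with scaling to the sum.

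Across both stages, 45 members were tested in oocytes and in embryos. Polr2d and Gtf2h2 were called in both, which is 50% of the oocyte calls and 25% of the embryo calls. Over all 9335 genes tested in both stages, 438 were called in both, 32.4% of the oocyte and 17.2% of the embryo calls. The embryo call of Gtf2h2 rests on few fragments and on a filter passed through Het, and without it Polr2d alone was called in both. With library totals set equal, Taf5 and Taf10 were called in both stages, each higher in KO. Polr2d and Gtf2h2 were then called in oocytes alone. The 4 groups of libraries were separate, so the stages share no control libraries. Of the 45 members 29 had the same sign in both stages (64.4%, beside 67.1% of all genes), 21 below 0 and 8 above 0. Tbp had a log2 difference of -0.77 in embryos (SE 0.24, limma adjusted p = 0.0506), with 2.70, 2.54, 1.52, 2.04 and 3.02 FPKM in Het and 1.78, 1.54, 1.01 and 1.19 FPKM in KO, and was not called there. With all 19 libraries in 1 fit Tbp was called lower in embryos too. The interaction for Tbp was 0.01 on the log2 scale (SE 0.28, limma adjusted p = 0.992). Polr2j, called higher in oocytes, was at 95.3 to 142 FPKM in Het and 111 to 141 FPKM in KO embryos, with a log2 difference of 0.04 (SE 0.15, limma adjusted p = 0.875). The interaction for Polr2j was -0.57 (SE 0.17, limma adjusted p = 0.0506) and was not called.

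**Figure D3:**
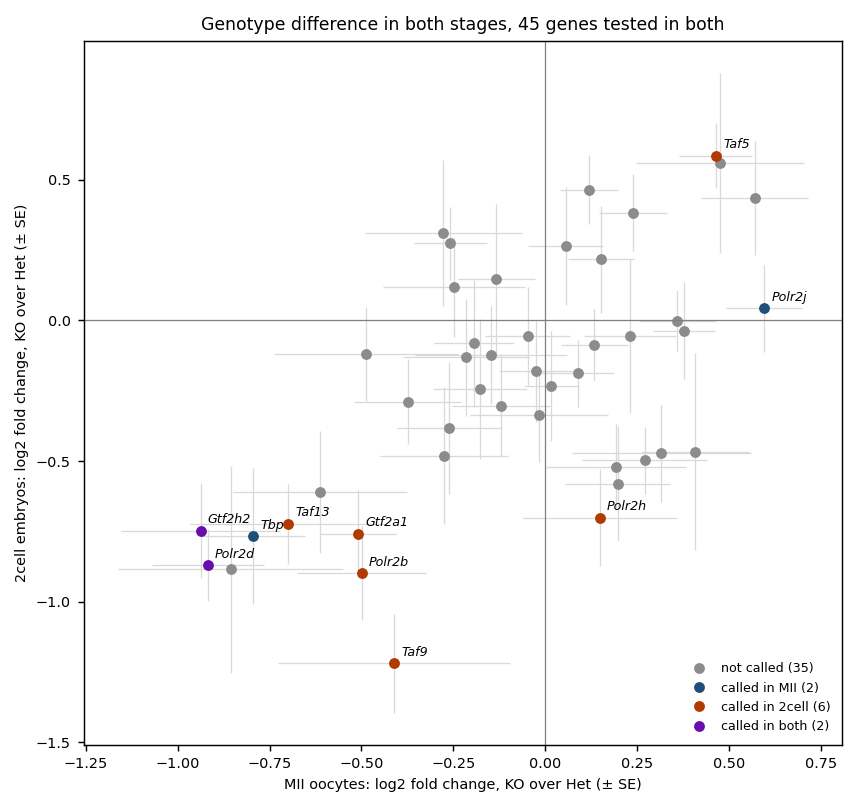
Log2 fold change of KO over Het (± SE) in MII oocytes on the x axis and in 2cell embryos on the y axis for the 45 members tested in both, coloured by where they were called. Polr2d and Gtf2h2, called in both, lie at the lower left, and 21 of the 45 points lie below 0 on both axes.

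Whether the genotype difference itself changed between the stages was tested as an interaction over all 19 libraries. It was called for 3 of 50 members (6%), beside 8.01% of all 15786 genes tested (3.48% higher and 4.54% lower in 2cell relative to MII). In 1 of the 3, Gtf2a1l, embryo levels were too low to give a fold, and no change between stages is read from its call. Gtf2h5, the smallest TFIIH subunit, which stabilises the complex in DNA repair, was at 6.28, 7.2, 5.49, 4.16 and 6.27 FPKM in Het and at 10.3, 7.78, 8.35, 5.46 and 6.59 FPKM in KO oocytes. In embryos it was at 6.98, 8.68, 9.95, 10.1 and 9.80 FPKM in Het and at 7.04, 6.33, 6.00 and 6.79 FPKM in KO. The difference of the log2 fold changes was -0.79 (SE 0.23, limma adjusted p = 0.0402), and both stages overlapped.

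Taf1, the largest TFIID subunit, had low values throughout. It was at 0.164 ± 0.0410 FPKM in Het and 0.216 ± 0.0303 in KO oocytes, and at 0.242 ± 0.0794 in Het and 0.128 ± 0.0288 in KO embryos (interaction -0.80 on the log2 scale, SE 0.24, limma adjusted p = 0.0440). Gtf2a1l, the germ-cell form of the large TFIIA subunit, was at 0.481 ± 0.0554 FPKM in Het and 0.368 ± 0.0640 in KO oocytes. In embryos it was at 0.0207 ± 0.00906 and 0.0411 ± 0.00769 FPKM, an estimated 0.739 and 1.44 fragments per library, too few for a fold there (interaction 0.61, SE 0.17, limma adjusted p = 0.0313). It reached 0.1 FPKM in 0 of 9 embryo libraries and was tested on its oocyte levels alone, so the interaction rests on the oocyte difference and the added 0.1 FPKM, and it was not called with 1 FPKM added (log2 0.17). All 3 calls depended on single libraries. With each of the 19 libraries left out, Gtf2a1l was called in 12, Gtf2h5 in 6 and Taf1 in 5 of the 19 fits. Removing each library's trend with GC content ended the interaction calls of Gtf2h5 and Taf1. With values scaled to the sum of FPKM the interaction was called higher for 1 member, Taf11, and lower for 0, beside 5.08% and 2.64% of all genes, and with the values as deposited higher for 0 and lower for 2.

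Of the 8 members called lower in KO in either stage, 7 carried a CPE (TTTTAT or TTTTAAT, on the transcript strand) in their longest annotated 3′UTR, as did 1 of the 2 called higher. Over all 50 members it was 29 (58.0%), beside 58.87% of the 16971 protein-coding genes with a 3′UTR. The median 3′UTR was 600.5 bases in the members and 1040 bases in all, and longer 3′UTRs hold more matches. Taf9 and Polr2j had 0. The CPE nearest the 3′UTR end is shown for Polr2b, Polr2h, Gtf2a1, Gtf2h2, Taf13 and Tbp, which were called lower, and for Taf5, which was called higher, as the element known for the CPEB family. For CPEB3 itself, the study cites work that found only limited affinity for this element. The 30 bases run 5′ to 3′ in the transcripts of GENCODE vM21 (GRCm38), with the CPE in capitals:
Polr2b: ttgtgataagaaTTTTATttgttttgttta
Polr2h: gtatatgattttTTTTATtaaagttttctt
Gtf2a1: ataataaagataTTTTATttattgccagca
Gtf2h2: attttgagccatTTTTATtctaactcatta
Taf13: aatcagggcctgTTTTATtccgaaaagtgt
Tbp: gaagtttgctatTTTTATcttctctttcaa
Taf5: cattttgtacagTTTTATatttttgatatc

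Polr2d, also called lower, held 1 CPE in a 3′UTR of 573 bases, and its site is not shown. The number of CPEs in the 3′UTR was 1 in Polr2b and Polr2h, 2 in Gtf2h2 and Taf5, 5 in Taf13, 11 in Gtf2a1 and 19 in Tbp. The longest Tbp 3′UTR annotated had 11596 bases, against 155 bases in Polr2b. The site shown lay 12 bases from the 3′UTR end in Gtf2a1, 17 in Polr2h, 49 in Taf5, 60 in Polr2b, 87 in Gtf2h2, 96 in Taf13 and 353 in Tbp. A match is a run of letters and no evidence of binding, and which 3′UTR the oocytes use was not measured.

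Between the stages members were called in both directions. In Het libraries 29 of 50 members were called (58%), 17 of them higher in embryos than in oocytes and 12 lower, beside 65.7% of all 15786 genes tested (41.8% higher and 23.9% lower). In KO libraries 30 of 50 were called (60%), 14 higher and 16 lower, beside 64.6% of all genes (41.2% higher and 23.4% lower). The members' median log2 difference was -0.16 in Het and -0.17 in KO, beside 0.37 and 0.36 over all genes tested. In both genotypes 13 members were called higher (26%) and 12 lower (24%), and 0 in opposite directions, beside 35.7% and 19.8% of all genes tested and 12 genes in opposite directions.

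The scale decided much of this. With library totals of FPKM set equal the median of all genes tested was -0.17 in Het and -0.07 in KO, and 6 members were called higher and 28 lower in Het, and 9 and 31 in KO. Of all genes tested, 31.5% were then called higher and 37.6% lower in Het, and 33.7% and 35.3% in KO. Relative to the median of all genes tested, 18 of 50 members lay above it in Het and 16 of 50 in KO under either scaling. The MII columns summed to 77208 to 86770 FPKM and the 2cell columns to 113886 to 159320 FPKM.

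Polymerase subunits were called higher in embryos more often than lower on the trimmed-mean scale, 8 and 0 of 13 in Het and 7 and 0 in KO, where of all genes 41.8% and 23.9% were in Het and 41.2% and 23.4% in KO. With library totals set equal it was 3 and 3 in Het and 3 and 6 in KO, beside 31.5% and 37.6% and 33.7% and 35.3% of all genes. Polr2h went from 1.37, 1.0, 1.77, 1.15 and 1.42 FPKM in Het oocytes to 13 to 24.1 FPKM in Het embryos (log2 fold change 3.70, SE 0.20, limma adjusted p = 9.32e-12). Polr2l, another subunit shared with polymerases I and III, went from 4.80, 6.66, 3.92, 4.74 and 4.83 FPKM to 33.0, 48.5, 38.1, 35.4 and 42.4 FPKM (log2 2.99, SE 0.20, limma adjusted p = 1.35e-10). Polr2e, also shared, went from 3.13, 3.99, 2.38, 4.06 and 2.86 FPKM to 13.5, 13.4, 18.4, 22.2 and 22.7 FPKM (log2 2.43, SE 0.17, limma adjusted p = 2.37e-10).

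In all 3 genes every embryo library lay above every oocyte library, in KO too, where the log2 fold changes were 2.83, 3.0 and 2.23. The 5 subunits shared by the 3 polymerases, a split made after the values were seen, had log2 differences from 0.79 to 3.70 in Het and were all called higher. The other 8, Polr2m among them, ranged from -0.52 to 1.26, with 3 called higher, including Polr2m. In KO, 4 of the 5 shared subunits and 3 of the other 8 were called higher. With scaling to the sum of FPKM, Polr2e, Polr2h and Polr2l were still called higher in both genotypes, so 3 of the 5 shared subunits and 0 of the other 8. Polr2f, Polr2k and Polr2j were then called higher in neither, and Polr2k was called lower in KO.

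**Figure D4:**
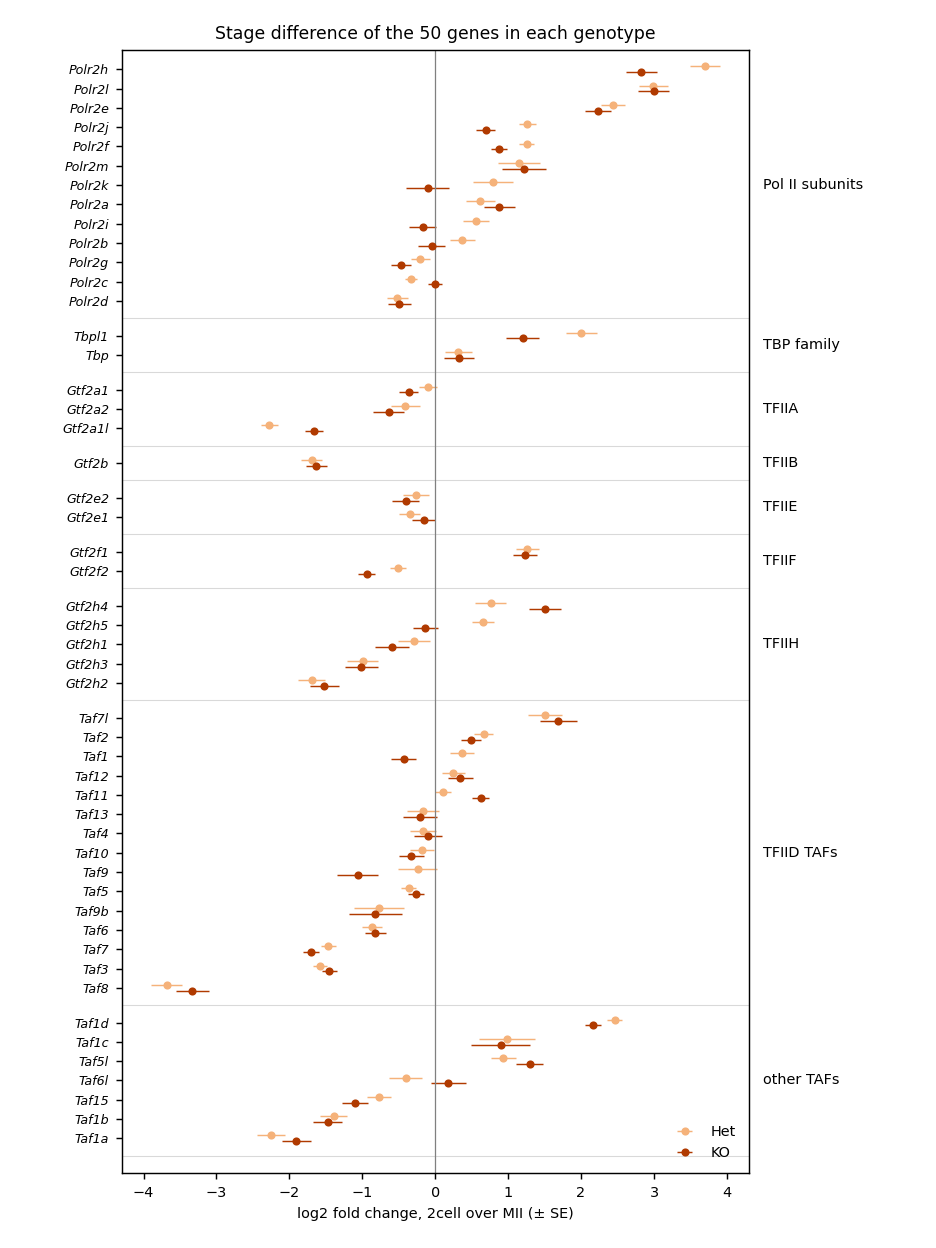
Log2 fold change of 2cell over MII (± SE) for the 50 members, grouped by role and drawn for Het (light) and KO (dark), from 1 limma fit of all libraries. Polr2h, Polr2l and Polr2e lie farthest to the right among the polymerase subunits and Taf8 farthest to the left, at -3.68 in Het.

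Polr2j rose from 44.3 to 59.0 FPKM in Het oocytes to 95.3 to 142 FPKM in Het embryos (log2 1.26, SE 0.12, limma adjusted p = 2.3e-08). Its partner Polr2c did not follow (log2 -0.33, SE 0.09, limma adjusted p = 0.00208, under 1.5-fold). Polr2b had a log2 difference of 0.37 in Het and -0.05 in KO, and Polr2d one of -0.52 and -0.49, none of them called.

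Low members passed the filter through 1 stage. Gtf2h4, Taf1c, Taf5l and Taf7l reached 0.1 FPKM in 0 of 10 oocyte libraries and Gtf2a1l in 0 of 9 embryo libraries, so the filter itself favoured a stage difference for these 5.

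The factors that recognise the promoter went both ways. Gtf2b, the single TFIIB gene, was at 21.2, 19.3, 23.4, 22.4 and 19.8 FPKM in Het oocytes and at 6.19, 6.76, 5.60, 6.36 and 7.02 FPKM in Het embryos (log2 fold change -1.69, SE 0.14, limma adjusted p = 3.4e-09). In KO libraries it was at 13.5 to 20.2 and 4.57 to 6.45 FPKM (log2 -1.63, SE 0.15, limma adjusted p = 1.49e-08). Tbpl1 went from 0.389, 0.329, 0.545, 0.416 and 0.317 FPKM to 1.36, 1.79, 1.67, 2.11 and 2.47 FPKM in Het (log2 2.00, SE 0.22, limma adjusted p = 1.39e-07). Tbp, its better known relative, had a log2 difference of 0.32 in Het and 0.33 in KO and was called in neither.

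Of the 3 TFIIA genes, 1 was called lower in Het, beside 23.9% of all genes. With library totals set equal all 3 were called lower in either genotype, beside 37.6% of all genes in Het and 35.3% in KO. Gtf2a1l was higher in oocytes, at 0.496, 0.477, 0.399, 0.554 and 0.477 FPKM in Het, and at most 0.0277 FPKM in Het embryos (log2 fold change -2.28, SE 0.12, limma adjusted p = 2.76e-12). The embryo level lies under 1 fragment per library on average, so the log2 value depends on the added 0.1 FPKM. Gtf2a1 had a log2 difference of -0.10 (SE 0.12, limma adjusted p = 0.489) and Gtf2a2 one of -0.41 (SE 0.20, limma adjusted p = 0.0739) in Het. In KO, Gtf2a2 was called (log2 -0.63, SE 0.21, limma adjusted p = 0.0124), but not without KO oocyte library D or E or KO embryo library A or D.

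In TFIIF, Gtf2f1 rose from 4.0 to 6.50 FPKM in Het oocytes to 9.71 to 15.9 FPKM in Het embryos (log2 1.26, SE 0.15, limma adjusted p = 7.02e-07), and by 1.24 on the log2 scale in KO. The call in Het was lost with library totals set equal. Its partner Gtf2f2 was at 0.539 to 0.663 FPKM in Het oocytes and 0.303 to 0.496 FPKM in Het embryos (log2 -0.51, SE 0.11, limma adjusted p = 0.000542, under 1.5-fold). In KO it was called lower, from 0.788 to 0.904 FPKM to 0.346 to 0.460 FPKM (log2 -0.94, SE 0.12, limma adjusted p = 1.22e-06), and with library totals set equal it was called lower in both genotypes. Of TFIIE, Gtf2e1 had a log2 difference of -0.35 in Het (SE 0.15, limma adjusted p = 0.0393) and was not called, nor was Gtf2e2. With library totals set equal both TFIIE genes were called lower in either genotype, beside 37.6% of all genes in Het and 35.3% in KO. In TFIIH, 2 members were called higher and 2 lower in Het, but 0 and 3 with library totals set equal. Of all genes 41.8% were called higher and 23.9% lower in Het, and 31.5% and 37.6% with library totals set equal. Gtf2h2 fell from 0.730 to 1.05 FPKM to 0.184 to 0.233 FPKM (log2 -1.69, SE 0.19, limma adjusted p = 1.66e-07). Gtf2h5 rose in Het (log2 0.65, SE 0.16, limma adjusted p = 0.00105), but had a log2 difference of -0.15 with scaling to the sum of FPKM, and was not called without Het oocyte library D.

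The TFIID TAFs were called lower more often than higher between the stages, 5 and 2 of 15 in Het and 6 and 2 in KO. Of all genes 23.9% were called lower and 41.8% higher in Het, and 23.4% and 41.2% in KO. With library totals set equal it was 11 and 1 in either genotype, beside 37.6% and 31.5% of all genes in Het and 35.3% and 33.7% in KO. Taf7l, which reached 0.1 FPKM in 0 of 10 oocyte libraries, was among those called higher in each case. Taf8, the partner of Taf10, was at 6.99, 6.04, 8.52, 6.86 and 6.44 FPKM in Het oocytes and at 0.40, 0.433, 0.547, 0.419 and 0.425 FPKM in Het embryos. No embryo library came near an oocyte library (log2 fold change -3.68, SE 0.21, limma adjusted p = 1.82e-11). In KO libraries Taf8 was at 2.98, 4.59, 6.13, 7.01 and 6.90 FPKM and at 0.479, 0.502, 0.367 and 0.316 FPKM (log2 -3.33, SE 0.22, limma adjusted p = 2.11e-10). Taf7 went from 211, 206, 194, 194 and 230 FPKM in Het oocytes to 61.4, 73.2, 65, 91.3 and 81.2 FPKM in Het embryos (log2 -1.47, SE 0.11, limma adjusted p = 5.73e-10), and fell by 1.71 on the log2 scale in KO.

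Of the 7 other TAFs, Taf1a and Taf1d, both subunits of the SL1 factor of polymerase I, moved in opposite directions. Taf1a was at 6.02, 5.01, 6.70, 6.11 and 6.35 FPKM in Het oocytes and at 0.980, 0.845, 1.62, 1.37 and 1.16 FPKM in Het embryos (log2 fold change -2.25, SE 0.19, limma adjusted p = 3.49e-09). Taf1d was at 1.55, 1.62, 1.41, 1.44 and 1.56 FPKM and at 7.65, 10.4, 7.93, 8.88 and 8.70 FPKM (log2 2.46, SE 0.10, limma adjusted p = 1.92e-13). Neither overlapped between stages, and in KO the log2 fold changes were -1.91 and 2.17. Taf1d hosts several small nucleolar RNAs on the same strand in its gene, each under 2% of its exon bases and more together. Their part in the Taf1d values was not tested.

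Promoters were read because the genome is broadly transcribed by the 2cell stage. RefSeq windows of GRCm38.p6, each of 300 bases and mostly upstream of the start, matched 44 of the 50 members. The motifs were searched on both strands as letters. The ETS motif CCGGAAG was in 17 of the 44 members (38.6%) and in 12.9% of 17491 protein-coding promoters, the GC box GGGCGG in 75.0% and 49.2%, and the NRF1 motif in 18.2% and 7.17%. TATAAA was in 20.5% and 14.8%, and CCAAT in 34.1% and 42.3%. No test was run on these shares, and a match is not a binding site. The 80 bases before the start are shown for the member with the largest rise and for Polr2l beside 3 members that fell, with GC box, NRF1 and ETS matches in capitals, since matches occur among members that rose and members that fell:
Polr2h, chr16:20717746-20717825, plus strand: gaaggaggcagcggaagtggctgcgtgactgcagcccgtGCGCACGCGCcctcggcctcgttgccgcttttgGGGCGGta
Polr2l, chr7:141475154-141475233, minus strand: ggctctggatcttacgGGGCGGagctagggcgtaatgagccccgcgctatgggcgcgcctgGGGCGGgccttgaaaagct
Taf8, chr17:47502292-47502371, minus strand: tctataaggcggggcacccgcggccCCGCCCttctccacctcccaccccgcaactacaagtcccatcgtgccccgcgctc
Taf1a, chr1:183388805-183388884, plus strand: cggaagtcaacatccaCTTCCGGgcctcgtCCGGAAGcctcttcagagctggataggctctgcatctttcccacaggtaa
Gtf2b, chr3:142765167-142765246, plus strand: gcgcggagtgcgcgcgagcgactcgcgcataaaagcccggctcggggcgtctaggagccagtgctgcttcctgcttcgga

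Polr2h and Taf1a each have 2 promoter windows in RefSeq, and the upstream one is shown. Within the 80 bases shown, Polr2h holds a GC box and an NRF1 match, Polr2l 2 GC boxes, Taf8 a GC box on the other strand, Taf1a 2 ETS matches, and Gtf2b none of the 5 motifs.

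Other parts of the transcription machinery were counted beside the members. Of all genes tested, 5.51% were called higher and 7.33% lower in oocytes, and 8.67% and 9.42% in embryos. With library totals set equal it was 10.6% and 4.55% in oocytes, and 17.2% and 4.08% in embryos. Of Mediator, the coactivator that links activators to the polymerase, 3 were called higher and 1 lower of 29 tested in KO oocytes and 2 higher and 7 lower of 28 in KO embryos. Of pausing and elongation factors it was 3 higher and 0 lower of 24 in oocytes and 4 and 3 of 25 in embryos. The 5 TFIIH genes outside the rule (Ercc2, Ercc3, Cdk7, Ccnh and Mnat1) had 0 calls in either direction in both stages, of 4 and 3 tested. Phosphatases and assembly factors of the polymerase had 0 calls of 9 in oocytes and 2 lower of 12 in embryos. Polymerase I genes had 1 lower of 9 in oocytes and 1 higher and 1 lower of 10 in embryos, and polymerase III genes 1 higher of 15 and 0 of 19. With library totals set equal, Mediator had 5 higher and 1 lower in oocytes and 2 and 2 in embryos, and pausing and elongation factors 5 and 0 in each. Phosphatases and assembly factors then had 3 higher and 2 lower in embryos, polymerase III genes 2 higher in oocytes and 3 higher in embryos, and polymerase I genes 1 higher and 1 lower in oocytes and 1 higher in embryos.

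Between the stages, 41.8% of all genes were called higher and 23.9% lower in Het, and 41.2% and 23.4% in KO. With library totals set equal it was 31.5% and 37.6% in Het, and 33.7% and 35.3% in KO. Of the polymerase I genes, 8 of 10 were called higher and 0 lower in either genotype (median log2 2.19 in Het and 1.98 in KO), and 7 and 1 with library totals set equal. Polymerase III genes were called higher for 12 and lower for 3 of 20 in Het (median log2 0.88) and for 12 and 2 in KO, but for 7 and 8 in Het and 8 and 7 in KO with library totals set equal. Mediator was called higher for 11 and lower for 13 of 29 in Het (median log2 -0.50), and for 7 and 14 in KO. Pausing and elongation factors were higher for 11 and lower for 7 of 26 in Het, and 9 and 8 in KO. With library totals set equal these were 5 and 17 for Mediator and 8 and 13 for pausing and elongation factors in Het.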

How the data were processed

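RNA of 19 libraries was measured by SMART-seq v4 and paired-end sequencing. According to the study's methods and the submitters' processing notes, the authors trimmed reads with Trim Galore 0.4.1, mapped them to GRCm38 with HISAT2 2.0.5 and computed the deposited FPKM in SeqMonk. Its name calls the table raw counts, but 0.00203% of the values are whole numbers above 0, so they were taken as FPKM. Of low values of 9249 genes with 1 transcript, 45.25% came within 0.05 of a whole fragment number, so depth is an estimate, and fragment numbers cover counting error only. Whether counting used strand is not given in the sources used here.

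Scaling used trimmed means of the log ratios between libraries (30% of ratios and 5% of levels trimmed on each side). Genes that reached 0.1 FPKM in 5 of the MII or 4 of the 2cell libraries were fitted as log2(FPKM + 0.1) within each stage in limma 3.58.1 (R 4.3.3) with a variance trend. Stage differences and the interaction came from 1 fit of all 19 libraries (0.1 FPKM in at least 4). Adjusted p-values are Benjamini-Hochberg over all genes tested. Group values are mean ± SD of FPKM as deposited. The genotype labels were checked with two-sided exact permutation tests. The fits were tested on simulated data.

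The members and gene lists were chosen with earlier results of these data known. Named are the members called between genotypes or in the interaction, the highest member of each role by mean FPKM, and the 5 largest rises and falls between stages among calls in Het. Coordinates and exon overlaps are from GENCODE vM21, in which 46 of 50 members have the coordinates of the deposited table. Each 3′UTR is the longest annotated, and promoters are from RefSeq. Alternatives were the values as deposited, library totals set equal, 1 FPKM added, no filter or 1 FPKM as filter, no fold threshold, a replicate block, removal of each library's loess trend with GC content (span 0.5), all 19 libraries in 1 fit, and each library left out in turn. Tables and plots were made in Python 3.11.15 (matplotlib 3.10.9, scipy 1.17.1, pandas 2.3.3, numpy 2.4.6).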

Additional observations from a re-analysis of the deposited data

Results flagged for a closer look

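Taf8 was at 0.547 FPKM in Het 2cell library C, apart from the other 4 Het 2cell libraries at 0.40 to 0.433 FPKM. The gap was 0.776 of the range, above Dixon's critical value of 0.71 for 5 samples. It was 1 of 96 groups of values checked, and chance flags about 1 in 20, so it is no pattern.

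For 2 genes the genotype difference differed between the stages by the interaction test, though not with each library's GC trend removed. Gtf2a1l passed the test without a usable fold in embryos. The difference of log2 fold changes, 2cell minus MII, was -0.79 for Gtf2h5 and -0.80 for Taf1. For Gtf2a1l it was 0.61, with under 2 fragments per library in 2cell embryos, and 0 of 9 embryo libraries at 0.1 FPKM, so that value depends on the added 0.1 FPKM and no change between stages is read from it. With 1 library left out in turn, these adjusted p-values from limma ranged from 0.0181 to 0.0773 for Gtf2h5, from 0.0101 to 0.0802 for Taf1 and from 0.0171 to 0.0634 for Gtf2a1l.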

How the results depend on the processing

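Of the members, 4 were called between genotypes in MII oocytes, 8 in 2cell embryos, 29 and 30 between stages in Het and KO, and 3 in the interaction. With 1 FPKM added these were 2 in oocytes and 16 in each of the stage comparisons. With no fold threshold there were 10 in oocytes, and with a filter of 1 FPKM 19 between stages in Het and 0 in the interaction. With library totals set equal there was 1 in the interaction, and the log2 stage difference of Gtf2h5 in Het was -0.15 in place of 0.65. Fewer genes pass the filter of 1 FPKM by its construction. For the other settings the cause was not tested. With single libraries left out, the counts ran from 3 to 7 in oocytes (7 without Het library B and without KO library D) and from 0 to 5 in the interaction (0 without KO MII B, Het 2cell B or KO 2cell D, 5 without Het 2cell A, and 1 without Het MII A, D or E, KO MII E, Het 2cell D or E, or KO 2cell B). They ran from 6 to 11 in embryos, from 25 to 30 between stages in Het and from 27 to 31 in KO.

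Replicate letters do not pair the libraries. The deviations of libraries with the same letter correlated from -0.176 to 0.11 between the genotypes in oocytes and from -0.0688 to 0.0366 in embryos, and 1 of 5 oocyte and 1 of 4 embryo libraries correlated best with its own letter in the other genotype. With the replicate letter as a block, 3 members were called in oocytes, 1 in embryos (Taf9), 28 and 29 between stages in Het and KO and 0 in the interaction. Depth limits the members with few fragments. A mean under 10 fragments per library in at least 1 group was estimated for 8 of the 50, and a missed call there does not show that they did not differ.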

Other observations

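The rule left out 2 germ-cell relatives of the members, Tbpl2 and Taf4b, which are named here after their values were seen. Tbpl2, the TBP paralog of growing oocytes, was at 0.509 ± 0.0819 FPKM in Het and 0.435 ± 0.0969 in KO oocytes (SD, n = 5 each), and at 0.278 ± 0.0857 (n = 5) and 0.161 ± 0.0506 FPKM (n = 4) in embryos. It was called lower in embryos in both genotypes (log2 -0.70 in Het and -0.98 in KO, limma adjusted p = 0.00283 and 0.00024), and was not called between genotypes. Taf4b, a TAF known from the ovary, was at 0.203 ± 0.0248 and 0.215 ± 0.0261 FPKM in Het and KO oocytes and at 0.822 ± 0.208 and 0.740 ± 0.0679 FPKM in embryos. It was called higher in embryos (log2 1.61 in Het and 1.46 in KO, limma adjusted p = 2.77e-09 and 2.68e-08), and was not called between genotypes.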
